A study of Mus musculus with 14 samples.

Results

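A set of 9 genes of adult neurogenesis and cell division was followed in the hippocampus of lupus-prone and control mice, with and without a functional IRAK4 kinase. They are Dcx, Sox11, Neurod1, Eomes, Igfbpl1, Mki67, Top2a, Calb2 and Draxin, taken by symbol from the GENCODE M21 annotation of the count table, and they make up 9 of the 55536 Ensembl genes counted. All 9 passed the filter on low values (at least 10 counts summed over the 14 libraries), which 38070 genes passed. MRL mice are B6.MRL-Faslpr/J, which carry the lpr allele of the death receptor gene Fas and develop lupus. MRL-IRAK4-KD mice are MRL mice crossed with IRAK4-kinase-dead mice, IRAK4-KD mice carry the kinase mutation without lpr, and C57BL/6 mice carry neither. All 4 groups were on the C57BL/6 background and 10 months old, and hippocampi were dissected after perfusion with PBS. There were 4 libraries of MRL, 4 of MRL-IRAK4-KD, 3 of C57BL/6 and 3 of IRAK4-KD. Both alleles are present in every cell of the animal and not in one cell type, so a difference cannot be assigned to neural precursors. The question behind the study is whether IRAK4 activity drives the neuropsychiatric disease of these mice, with the hippocampus examined as the seat of contextual memory.

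New neurons are made throughout life in the subgranular zone of the dentate gyrus, where radial glia-like stem cells give rise to dividing intermediate progenitors, then to neuroblasts, and finally to granule neurons. Each step is marked by a changing set of transcription factors and cytoskeletal proteins, and the process declines steeply with age in mice. Precursors are a small share of hippocampal cells, so in whole tissue several of these genes are also read from mature neurons, interneurons or glia. In such bulk samples, fewer cells of a type and less RNA per cell cannot be told apart.

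Libraries held 279941472 to 572398312 counts in total. Levels are given below as CPM, the count of a gene relative to the total of its library, scaled with edgeR's trimmed mean of M-values. MRL-IRAK4-KD replicate 4 stood apart from the other 13 libraries. Its highest correlation with any other library was 0.922, against at least 0.988 for each of the others, and its summed level of 10 choroid plexus genes was 7917 CPM against 74.8 to 1899 CPM elsewhere. It had the lowest library concentration by qPCR, 13.48 nM against 23.49 to 27.55 nM. The library labelled IRAK4-KD replicate 3 went against its label at Fas. It had 0 counts of the Fas transcript Fas-201 and 514 counts of Fas-204, as in the 8 lpr libraries, where Fas-201 was at 0 and Fas-204 at 268 to 964 counts, whereas the other 5 libraries without lpr had 345 to 584 counts of Fas-201. The same library had the highest sum of 9 striatal markers, 490.7 CPM against 87.9 to 183.7 CPM. The kinase mutation itself cannot be seen in gene counts. Main results that involve either library are therefore also given without it, or without both. All 9 markers of hippocampal neurons were detected in every library, with sums of 708.9 to 2225 CPM.

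Across all 14 libraries the 9 genes covered a wide range of levels. Per kilobase of annotated exon, the mean level was highest for Calb2 (15.6 CPM per kb), followed by Neurod1 (8.75), Sox11 (4.08) and Dcx (1.62). It was far lower for Igfbpl1 (0.235 CPM per kb), Mki67 (0.222), Top2a (0.0960), Draxin (0.0880) and Eomes (0.0843). Neurod1 was the steadiest, with a coefficient of variation of 7.80% over the 14 libraries, and Igfbpl1 the most variable, with 102%. Without MRL-IRAK4-KD replicate 4 the variation of Sox11 fell from 51.6% to 19.1%, that of Igfbpl1 from 102% to 61.3%, and that of Calb2 from 44.5% to 28.4%.

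**Figure D1:**
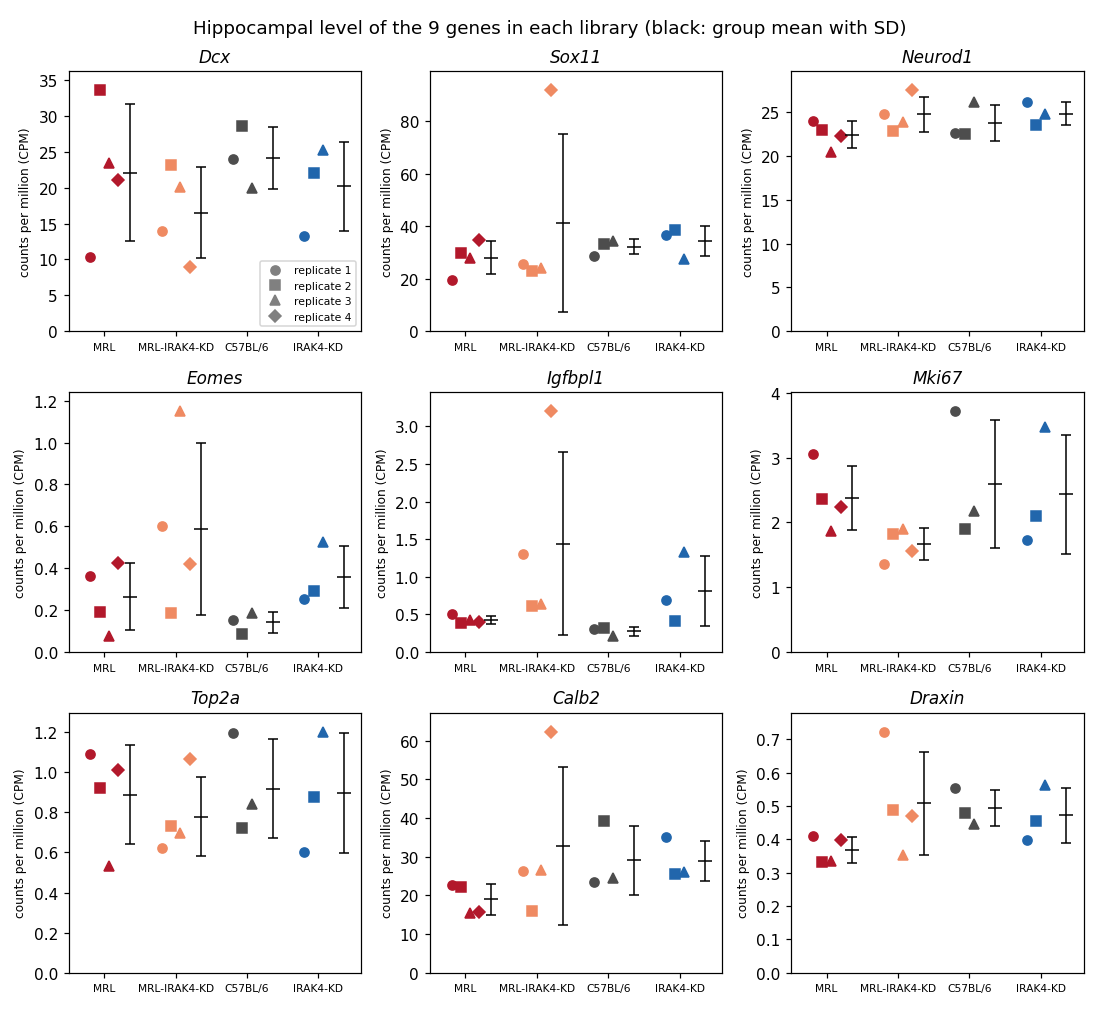
Level of each of the 9 genes in CPM (vertical axes, each starting at 0) in every library of the 4 groups (horizontal axes), with the marker shape giving the replicate number and black bars the group mean ± SD. MRL-IRAK4-KD replicate 4 (orange diamond) is the highest library for Sox11 (91.8 CPM), Igfbpl1 (3.20 CPM) and Calb2 (62.3 CPM) and the lowest for Dcx (8.92 CPM).

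The lupus-prone mice with and without IRAK4 activity were compared first. In edgeR's quasi-likelihood test with Benjamini-Hochberg adjustment over all 38070 genes, 0 of the 9 genes had an adjusted p below 0.05 when MRL was set against MRL-IRAK4-KD, a threshold that 0.0972% of all genes passed. At an unadjusted p below 0.05, 2 of the 9 were lower in MRL (Igfbpl1 and Calb2) and 0 were higher, against 11.4% of all genes in either direction, 6.23% lower and 5.14% higher. The median log2 difference of the 9 genes, MRL minus MRL-IRAK4-KD, was -0.47, beside 0.00 for all genes. Without MRL-IRAK4-KD replicate 4 and the library labelled IRAK4-KD replicate 3 it was -0.090, beside 0.010. DESeq2 called 1 of the 9, Igfbpl1, and limma-voom with quality weights called 0 in this and in each of the other comparisons. The share of all genes that DESeq2 called is not given here, so its calls cannot be set against one. Without MRL-IRAK4-KD replicate 4 and the library labelled IRAK4-KD replicate 3, edgeR again called 0. There 2 passed the unadjusted threshold, Igfbpl1 and Eomes, beside 8.73% of all genes.

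Igfbpl1 (ENSMUSG00000035551, chromosome 4, 45809468 to 45826923, minus strand, mm10), which encodes a secreted insulin-like growth factor binding protein family member found in newborn neurons, showed the clearest separation of groups. It was measured at 0.503, 0.380, 0.427 and 0.397 CPM in the MRL libraries and at 1.30, 0.609, 0.643 and 3.20 CPM in the MRL-IRAK4-KD libraries. Every MRL-IRAK4-KD library was above every MRL library. In the same contrast 5 of 9 hippocampal neuron markers were lower in MRL at unadjusted p, and over the 14 libraries Igfbpl1 had a Pearson r of 0.75 with their sum (0.51 without MRL-IRAK4-KD replicate 4), a relation given with its tests under Dcx. The part of these markers in the difference was not tested. C57BL/6 libraries had 0.300, 0.313 and 0.209 CPM, below all others, and IRAK4-KD libraries had 0.689, 0.418 and 1.32 CPM. These levels correspond to 85 to 995 counts per library. Igfbpl1 was the only one of the 9 whose MRL and MRL-IRAK4-KD values did not overlap, which held for 5.26% of all genes. The log2 fold change, MRL over MRL-IRAK4-KD, was -1.75 ± 0.49 (SE), or 3.37-fold higher with the dead kinase (edgeR p = 0.00321, adjusted p = 0.392; exact 2-sided permutation p = 0.0286, the smallest that 4 against 4 libraries allow). DESeq2 gave an adjusted p of 0.0293 for the same comparison, and over all alternatives the adjusted p ranged from 0.0293 to 0.643. MRL-IRAK4-KD replicate 4 carried much of the size of the difference: without it the log2 fold change was -0.99. With the library labelled IRAK4-KD replicate 3 left out as well, the edgeR adjusted p was 0.359.

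By the labels, IRAK4-KD against C57BL/6 tests the kinase mutation without lpr, but the library labelled IRAK4-KD replicate 3 had the Fas transcripts of the lpr libraries. Between these groups 0 of the 9 genes were called by edgeR, against 0.147% of all genes. Only Igfbpl1 passed the unadjusted threshold, at which 3.8% of all genes passed and 1.66% were higher in IRAK4-KD. Its log2 fold change was 1.56 ± 0.57 (edgeR p = 0.0160, adjusted p = 1.00), with all 3 IRAK4-KD libraries above all 3 C57BL/6 libraries (exact permutation p = 0.1, the smallest 3 against 3 libraries allow). Without the library labelled IRAK4-KD replicate 3 it was 1.01. With MRL-IRAK4-KD replicate 4 left out as well, Igfbpl1 was again the only one to pass at unadjusted p, beside 5.67% of all genes. Groups that did not overlap in this comparison were found for Igfbpl1 and Eomes, both higher in IRAK4-KD, and for 11.2% of all genes (5.63% in that direction). DESeq2 called 0 of the 9. Whether the Igfbpl1 difference between kinase-dead and kinase-intact groups depended on lpr could not be told. The interaction was -0.19 ± 0.74 on the log2 scale (edgeR adjusted p = 1.00), and 0.022 without the 2 doubted libraries. It ran from -0.74 to 0.58 when 1 library was left out. For the interaction 0 of the 9 genes were called by edgeR or DESeq2 and 0 passed at unadjusted p by edgeR, beside 0.00263% and 4.17% of all genes. Igfbpl1 lies 3.55 Mb from Ccl21b and 3.04 Mb from Ccl21a, chemokine genes on the same chromosome. Of 44 tested genes within 1 Mb of Igfbpl1, 0 were higher at unadjusted p below 0.05 with the dead kinase in both comparisons, beside 0.273% of all genes. At so low a share a count of 0 cannot tell these genes from others, and the window does not reach the Ccl21 genes.

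MRL-IRAK4-KD was also set against C57BL/6, a contrast of 2 alleles at once that shares its libraries with the comparisons above. Again 0 of the 9 genes were called by edgeR, as were 0.0972% of all genes. At the unadjusted threshold 3 passed, Eomes and Igfbpl1 higher and Mki67 lower in MRL-IRAK4-KD, beside 8.62% of all genes. Without the 2 doubted libraries edgeR called 0. There 2 were higher at unadjusted p, Eomes and Igfbpl1, and 2 lower, Mki67 and Sox11, beside 3.81% and 5.08% of all genes. With all libraries DESeq2 called 1, Igfbpl1, with an adjusted p of 0.00260, again with no share over all genes beside it. The edgeR log2 fold change of Igfbpl1 was 2.39 ± 0.57, a 5.25-fold higher mean level (edgeR adjusted p = 0.415, exact permutation p = 0.0571), and it was 1.64 without MRL-IRAK4-KD replicate 4. It was the only one of the 9 without overlap between these groups, beside 8.71% of all genes. Igfbpl1 was also higher in MRL than in C57BL/6 in every library, by 0.64 ± 0.53 on the log2 scale (edgeR adjusted p = 1.00, exact permutation p = 0.0571).

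**Figure D2:**
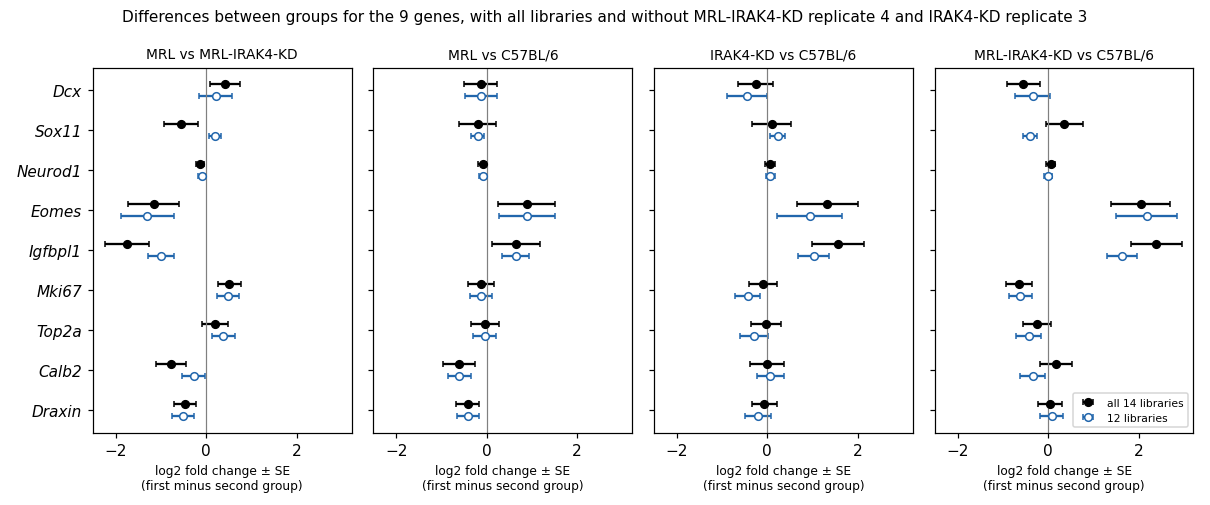
Log2 fold change ± SE (horizontal axes, first minus second group of each panel title, edgeR) of the 9 genes in 4 comparisons, with all 14 libraries (black) and without MRL-IRAK4-KD replicate 4 and the library labelled IRAK4-KD replicate 3 (blue, open). Igfbpl1 lies at 2.39 and 1.64 in the last panel, whereas Sox11 changes side, from -0.56 to 0.20 in the first and from 0.36 to -0.40 in the last.

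Eomes, or Tbr2, the T-box factor of intermediate progenitors (ENSMUSG00000032446, chromosome 9, 118478212 to 118486132, plus strand), was the lowest of the 9 genes per length, with 25 to 501 counts per library. MRL libraries had 0.363, 0.193, 0.0739 and 0.424 CPM, and MRL-IRAK4-KD libraries had 0.600, 0.185, 1.15 and 0.419 CPM. The C57BL/6 values were 0.152, 0.0870 and 0.187 CPM, and those of IRAK4-KD 0.255, 0.290 and 0.526 CPM. The MRL and MRL-IRAK4-KD ranges overlapped, and the top value belonged to MRL-IRAK4-KD replicate 3, which did not stand apart otherwise. Relative to C57BL/6 the log2 fold change was 2.05 ± 0.65 in MRL-IRAK4-KD (edgeR adjusted p = 0.552, exact permutation p = 0.114) and 1.33 ± 0.67 in IRAK4-KD (edgeR adjusted p = 1.00, exact permutation p = 0.1). Without the 2 doubted libraries these were 2.18 and 0.94. MRL minus MRL-IRAK4-KD was -1.16 ± 0.57 (edgeR adjusted p = 0.442, exact permutation p = 0.229), and the direction stayed when any 1 library was left out, between -1.47 and -0.59.

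Neurod1, a basic helix-loop-helix factor of late progenitors and immature granule cells that mature granule neurons also express (ENSMUSG00000034701, chromosome 2, 79452521 to 79456751, minus strand), varied least. Its group means were 22.4 ± 1.5 CPM in MRL (SD, n = 4), 24.7 ± 2.00 with the dead kinase added (n = 4), 23.8 ± 2.09 in the C57BL/6 controls (n = 3) and 24.8 ± 1.31 for IRAK4-KD (n = 3). All groups overlapped. The MRL minus MRL-IRAK4-KD difference was -0.14 ± 0.09 on the log2 scale (edgeR adjusted p = 0.515, exact permutation p = 0.143), and the other 4 group differences lay between -0.08 and 0.06.

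Sox11, a SoxC factor needed for the neuronal commitment of precursors (ENSMUSG00000063632, chromosome 12, 27334264 to 27342574, minus strand), was dominated by 1 library. The MRL libraries had 19.6, 29.6, 28.0 and 34.6 CPM and the MRL-IRAK4-KD libraries 25.7, 23.0, 24.2 and 91.8 CPM. The control C57BL/6 libraries were at 28.8, 33.2 and 34.2 CPM, and the IRAK4-KD libraries at 36.5, 38.4 and 27.6 CPM. With replicate 4 the MRL-IRAK4-KD mean was 41.2 ± 33.8 CPM (SD, n = 4), the highest of the groups, and without it 24.3 ± 1.33 CPM (n = 3), the lowest. The 3 remaining MRL-IRAK4-KD libraries were below every C57BL/6 and every IRAK4-KD library, whereas with replicate 4 the groups overlapped. The share of all genes that separate in this way without replicate 4 is not given here. In all libraries Sox11 differed by 0.36 ± 0.41 between MRL-IRAK4-KD and C57BL/6 on the log2 scale (edgeR adjusted p = 0.767, exact permutation p = 0.914). Without the 2 doubted libraries that difference was -0.40 ± 0.15 (edgeR adjusted p = 0.492), and that between MRL-IRAK4-KD and IRAK4-KD was -0.63 ± 0.17 (edgeR adjusted p = 0.373). With all libraries, edgeR and DESeq2 called 0 of the 9 genes between MRL-IRAK4-KD and IRAK4-KD, where edgeR called 0.0735% of all genes. There 0 passed the unadjusted threshold of edgeR, beside 8.63% of all genes. No gene of the 9 was without overlap there with all libraries, as against 8.74% of all genes. Without the 2 doubted libraries edgeR again called 0 in that comparison. Sox11 alone of the 9 then passed the unadjusted threshold, lower in MRL-IRAK4-KD, beside 6.80% of all genes (3.70% lower).

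Dcx encodes doublecortin, a microtubule-binding protein of migrating neuroblasts and the usual marker of adult neurogenesis (ENSMUSG00000031285, chromosome X, 143855842 to 143933311, minus strand). MRL libraries had 10.3, 33.6, 23.5 and 21 CPM, and MRL-IRAK4-KD libraries 13.9, 23.2, 20.1 and 8.92 CPM. In C57BL/6 it was at 24.0, 28.6 and 19.9 CPM, and in IRAK4-KD at 13.3, 22.0 and 25.2 CPM. The lowest and the highest library among those other than MRL-IRAK4-KD replicate 4 were both MRL, so the spread within MRL exceeded any difference between group means. MRL minus MRL-IRAK4-KD was 0.42 ± 0.34 on the log2 scale (edgeR adjusted p = 0.607, exact permutation p = 0.371) and MRL minus C57BL/6 was -0.13 ± 0.36 (edgeR adjusted p = 1.00, exact permutation p = 0.8). The latter moved between -0.40 and 0.12 when 1 library was left out, with the lowest value without MRL replicate 2.

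Dcx and several other members varied together with markers of the dissected tissue. Group means were not subtracted in the 54 relations tested here and below, so these mix differences between groups with variation within them. Over 14 libraries, the log2 level of Dcx had a Pearson r of -0.79 with the summed level of the 9 hippocampal neuron markers (permutation p = 0.000720, adjusted p = 0.00940 over 54 relations; Spearman rho = -0.65, p = 0.0132, adjusted p = 0.0648). After leaving out the 2 libraries farthest from the median of the sum, r was -0.55. It was -0.66 without MRL-IRAK4-KD replicate 4 (permutation p = 0.0147, adjusted p = 0.130). With the summed level of 8 neocortical markers r was 0.63 (permutation p = 0.0152, adjusted p = 0.0586; Spearman rho = 0.55, p = 0.0449), and 0.57 without the 2 farthest libraries. Neurod1, Igfbpl1 and Calb2 ran the other way, with r of 0.81, 0.75 and 0.71 to the hippocampal sum (permutation p = 0.000490, 0.00257 and 0.00615, adjusted p = 0.00882, 0.0231 and 0.0354; Spearman rho = 0.79, 0.73 and 0.67; r = 0.80, 0.51 and 0.49 without the 2 farthest libraries). With the neocortical sum r was -0.69 for Neurod1 and -0.70 for Calb2 (adjusted p = 0.0354 each by permutation; rho = -0.75 and -0.78; r = -0.85 and -0.83 without the 2 farthest). With the summed level of the 10 granule neuron genes described below, Dcx (-0.75), Neurod1 (0.81) and Igfbpl1 (0.78) passed the adjusted threshold. Prox1, C1ql2 and Dsp are in both that list and the hippocampal list, so relations with these sums are not independent. With 15 S phase genes Dcx (-0.83) and Igfbpl1 (0.66) passed. Without MRL-IRAK4-KD replicate 4, of the 54 relations 3 passed: Neurod1 with the granule neuron sum, Dcx with the S phase sum and Mki67 with long transcripts (a measure given below), and 0 of the 9 genes passed with the hippocampal or the neocortical sum. MRL replicate 2, the library with the most Dcx, also had the highest neocortical sum, 573.6 CPM. The MRL group spanned 279.6 to 573.6 CPM of neocortical markers and 708.9 to 1254 CPM of hippocampal markers, against 215.9 to 365.4 and 1037 to 2225 CPM in MRL-IRAK4-KD. At unadjusted p below 0.05, 5 of the 9 hippocampal markers were lower and 5 of the 8 neocortical markers higher in MRL than in MRL-IRAK4-KD, with 1 neocortical marker lower, and 0 of either list passed the adjusted threshold. Without the 2 doubted libraries 3 of 9 hippocampal markers were lower, and 4 of 8 neocortical markers were higher and 1 lower. The part of tissue composition in the values of Dcx and the other members was not tested. The genes whose log2 levels were most like Dcx over the 14 libraries, among 16099 with a mean of at least 1 CPM, were Zfp641 (r = 0.95), Cxadr (0.94), AI504432 (0.93), Rnf138 (0.93) and Rasa2 (0.92).

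The transcript table showed 2 further differences inside Dcx. Most of its counts were on Dcx-201, 95.8% of the counts pooled over all libraries, with 86.1% to 98.3% in 13 libraries and 74.0% in MRL-IRAK4-KD replicate 4. In that library Dcx-206 (ENSMUST00000139920, 143869210 to 143933050), annotated as a retained intron, received 700 counts or 25.3% of Dcx, against 0.769% to 2.55% in the other 13. Dcx-203 (ENSMUST00000112851, 143860711 to 143933204), an annotated protein-coding transcript with an internal start and end relative to Dcx-201, received 488 counts in IRAK4-KD replicate 1 and 1012 in IRAK4-KD replicate 2, or 9.09% and 11.5% of the Dcx counts of those libraries. In the other 12 libraries it received 0 to 107 counts, at most 1.25% of Dcx. The library labelled IRAK4-KD replicate 3 was among these, with 80 counts or 0.572%. Transcript counts are estimates that divide reads over overlapping models, so these are differences in assignment within 1 gene. No test was run on transcripts.

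**Figure D3:**
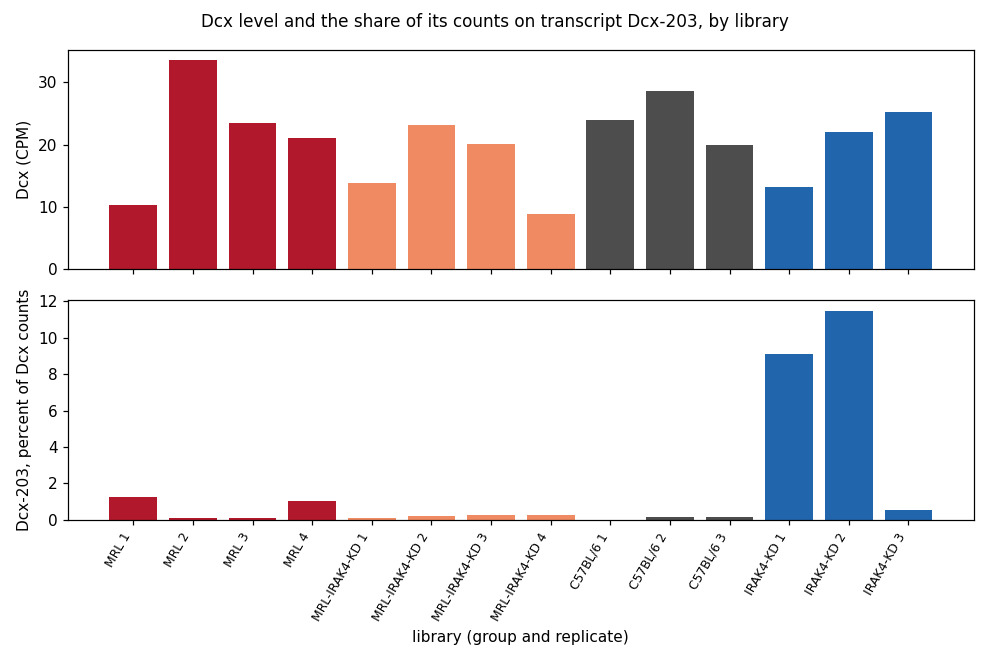
Level of Dcx in CPM (upper axis) and the percentage of Dcx counts on transcript Dcx-203 (lower axis) in each of the 14 libraries, coloured by group. Dcx ranges from 8.92 to 33.6 CPM with no ordering by group, and Dcx-203 exceeds 1.25% only in IRAK4-KD replicates 1 and 2, at 9.09% and 11.5%.

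Calb2 encodes calretinin, a calcium-binding protein of early postmitotic granule neurons that is also made by interneurons and, in mice, by hilar mossy cells (ENSMUSG00000003657, chromosome 8, 110137502 to 110168210, minus strand). MRL libraries had 22.7, 22.2, 15.5 and 15.7 CPM, and MRL-IRAK4-KD libraries 26.2, 15.9, 26.7 and 62.3 CPM. In C57BL/6 it was at 23.4, 39.2 and 24.5 CPM, and in IRAK4-KD at 35, 25.5 and 26.2 CPM. Every MRL library was below every C57BL/6 library, as for 5.16% of all genes, while the MRL and MRL-IRAK4-KD ranges overlapped. MRL minus MRL-IRAK4-KD was -0.79 ± 0.33 (edgeR adjusted p = 0.437, exact permutation p = 0.143) and -0.27 without MRL-IRAK4-KD replicate 4. In that library 8 genes of interneurons summed to 1025 CPM, the highest of all. Its sums of granule neuron (1215 CPM), hippocampal neuron (2225 CPM) and stem cell genes (455 CPM) were also the highest, and its neocortical sum (215.9 CPM) the lowest. The part of cell composition in its Calb2 value was not tested. MRL minus C57BL/6 was -0.61 ± 0.35 on the log2 scale (edgeR adjusted p = 0.931, exact permutation p = 0.0571). Its most alike genes over the 14 libraries were A630081D01Rik (r = 0.93), Necab2 (0.92), Cdh15 (0.91), Npffr1 (0.90) and A730020E08Rik (0.89). Without MRL-IRAK4-KD replicate 4 the first of the ranking was Krt2 (r = 0.94), and none of those 5 genes remained among the first 5.

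Draxin encodes a secreted axon guidance protein with a role in granule cell survival in the dentate gyrus (ENSMUSG00000029005, chromosome 4, 148098437 to 148130698, minus strand), and had 138 to 350 counts per library. The MRL values were 0.408, 0.333, 0.336 and 0.397 CPM, and the MRL-IRAK4-KD values 0.722, 0.488, 0.354 and 0.470 CPM. C57BL/6 libraries had 0.555, 0.480 and 0.447 CPM, all above MRL, and IRAK4-KD libraries had 0.399, 0.455 and 0.562 CPM. MRL minus C57BL/6 was -0.42 ± 0.26 on the log2 scale (edgeR p = 0.124, adjusted p = 0.938; exact permutation p = 0.0571, the smallest 4 against 3 libraries allow). In that comparison the groups did not overlap for 3 of the 9 genes, with Igfbpl1 higher and Calb2 and Draxin lower in MRL, beside 9.63% of all genes (4.47% higher and 5.16% lower). With all libraries 0 of the 9 genes were called by edgeR or DESeq2 between MRL and C57BL/6, as were 0% of all genes by edgeR. There 0 passed the unadjusted threshold of edgeR, beside 5.55% of all genes. Without the 2 doubted libraries, which belong to neither of these groups, edgeR again called 0. Calb2 alone of the 9 then passed the unadjusted threshold, lower in MRL, beside 10.2% of all genes (4.46% lower).

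Mki67 encodes Ki-67, a chromosome-coating protein present in all active phases of the cell cycle (ENSMUSG00000031004, chromosome 7, 135689784 to 135716361, minus strand), and Top2a encodes topoisomerase II alpha, which untangles DNA before mitosis (ENSMUSG00000020914, chromosome 11, 98992943 to 99024189, minus strand). Their promoters are shown because these genes formed the most closely correlated pair of the 9, and because cell-cycle promoters are known to carry repeated CCAAT boxes, bound by NF-Y, with a cell cycle genes homology region (CHR). The 250 bases upstream of the annotated start are given 5′ to 3′ on the gene's strand (RefSeq, GRCm38.p6), for Mki67 at chr7:135716380-135716629 and for Top2a at chr11:99024190-99024439, both minus strand. Capitals mark matches to 2 motifs. The first is CCAAT, which reads ATTGG on the other strand. The second is the CHR, searched as TTTGAA, which gives TTCAAA on the other strand. A variant of it, TTCGAA, is the same on both strands and was counted once.
Mki67: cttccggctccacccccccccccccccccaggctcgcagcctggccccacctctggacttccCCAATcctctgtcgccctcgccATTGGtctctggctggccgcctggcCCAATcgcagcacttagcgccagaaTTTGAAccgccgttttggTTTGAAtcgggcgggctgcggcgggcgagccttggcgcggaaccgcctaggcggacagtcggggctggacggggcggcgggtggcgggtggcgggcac
Top2a: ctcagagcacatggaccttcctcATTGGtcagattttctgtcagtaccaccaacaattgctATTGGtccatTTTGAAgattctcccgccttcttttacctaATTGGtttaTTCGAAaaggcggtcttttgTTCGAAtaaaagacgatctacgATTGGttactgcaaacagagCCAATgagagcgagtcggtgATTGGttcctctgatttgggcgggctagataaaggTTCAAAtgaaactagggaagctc
The Mki67 window held 3 CCAAT and 2 CHR matches, the Top2a window 6 and 4, and no match overlapped another. Of 32851 windows of the same length before annotated starts, 33.8% held CCAAT, 17.1% the CHR letters, 6.02% both, and 0.451% at least 3 CCAAT together with the CHR letters. Of the 9 genes 7 had an entry among these windows, and of the other 5 only Sox11 held both motifs. A match is a description of the letters and not a measured site.

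Mki67 had 3.06, 2.36, 1.86 and 2.24 CPM in the MRL libraries, whereas those of MRL-IRAK4-KD had 1.36, 1.82, 1.9 and 1.56 CPM. C57BL/6 libraries had 3.72, 1.9 and 2.17 CPM, and IRAK4-KD libraries 1.72, 2.1 and 3.48 CPM. The MRL-IRAK4-KD libraries lay at the low end, and their highest value exceeded the lowest of each other group by a small margin. MRL minus MRL-IRAK4-KD was 0.52 ± 0.26 on the log2 scale (edgeR p = 0.0689, adjusted p = 0.445; exact permutation p = 0.0571), and MRL-IRAK4-KD minus C57BL/6 was -0.64 ± 0.28 (edgeR p = 0.0379, adjusted p = 0.552; exact permutation p = 0.114). Top2a stood at 1.09, 0.921, 0.534 and 1.01 CPM in the MRL libraries, and at 0.621, 0.730, 0.698 and 1.07 CPM in those of MRL-IRAK4-KD. It had 1.19, 0.720 and 0.841 CPM in C57BL/6 and 0.604, 0.878 and 1.20 CPM in IRAK4-KD. All groups overlapped for Top2a, and MRL minus MRL-IRAK4-KD was 0.19 ± 0.29 (edgeR adjusted p = 0.804, exact permutation p = 0.543).

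Among the 36 pairs of the 9 genes, Mki67 and Top2a were correlated most closely over the 14 libraries. Their Pearson r was 0.74 (permutation p = 0.00208, adjusted p = 0.0749) and their Spearman rho 0.72 (p = 0.00484, adjusted p = 0.174), and r was 0.57 without the 2 libraries farthest from the median of Mki67. Of the 36 pairs, 0 passed the adjusted threshold. After the group means were subtracted r was 0.76 (permutation p = 0.00150, adjusted p = 0.0540). Without MRL-IRAK4-KD replicate 4 r was 0.90 (permutation p = 2.00e-05, adjusted p = 0.000720; rho = 0.91; 0.83 without the 2 farthest libraries), the only pair to pass there. The 3 libraries highest in Mki67, C57BL/6 replicate 1, the library labelled IRAK4-KD replicate 3 and MRL replicate 1, were also the highest 3 in Top2a. They carry 3 different labels, of which the IRAK4-KD label is the one that the Fas transcripts went against.

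Summed over all annotated models of each gene, Mki67 had 10.1 kb of exon and Top2a 9.01 kb, which can exceed the main transcript. Libraries differed in the level of genes with long annotated exon, and genes of short exon were not set beside them. The median deviation of 1465 genes with at least 10 kb of exon and a mean of at least 1 CPM from their own mean over libraries ran from -0.48 on the log2 scale in MRL-IRAK4-KD replicate 4 to 0.19 in the library labelled IRAK4-KD replicate 3. Mki67 had a Pearson r of 0.60 with this deviation (permutation p = 0.0191, adjusted p = 0.0689 over 54 relations; Spearman rho = 0.75, p = 0.00287, adjusted p = 0.0310; r = 0.69 without the 2 farthest libraries). Without MRL-IRAK4-KD replicate 4 r was 0.78 (permutation p = 0.00173, adjusted p = 0.0319; rho = 0.70). Top2a had an r of 0.057 with the same deviation (permutation p = 0.877, adjusted p = 0.926; rho = 0.53, p = 0.0542; r = 0.61 without the 2 farthest libraries), and 0.70 without MRL-IRAK4-KD replicate 4 (permutation p = 0.00747, adjusted p = 0.0807; rho = 0.71). With the summed level of 20 other G2/M phase genes, the r of Mki67 was 0.39 (permutation p = 0.165, adjusted p = 0.297; rho = 0.40, p = 0.155; r = 0.41 without the 2 farthest libraries), and with 15 S phase genes -0.33 (permutation p = 0.255, adjusted p = 0.406; rho = -0.42, p = 0.141; r = -0.54 without the 2 farthest). Dcx, with the most exon of the 9 genes (12.6 kb), had an r of 0.55 with the long-transcript deviation (permutation p = 0.0462, adjusted p = 0.125). Without MRL-IRAK4-KD replicate 4 that r was 0.072. The genes most like Mki67 over the 14 libraries were Mga (r = 0.90), Ttn (0.88), Lcor (0.87), Pou2f1 (0.87) and 4933421O10Rik (0.87), with 15.3, 117, 7.91, 16.6 and 3.85 kb of annotated exon. Without that library they were Spg11 (r = 0.92), 4933421O10Rik (0.92), Zfp974 (0.91), Usp24 (0.91) and Trrap (0.90), with 8.04, 3.85, 7.52, 12.35 and 20.9 kb. The part of transcript length in the Mki67 values was not tested.

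**Figure D4:**
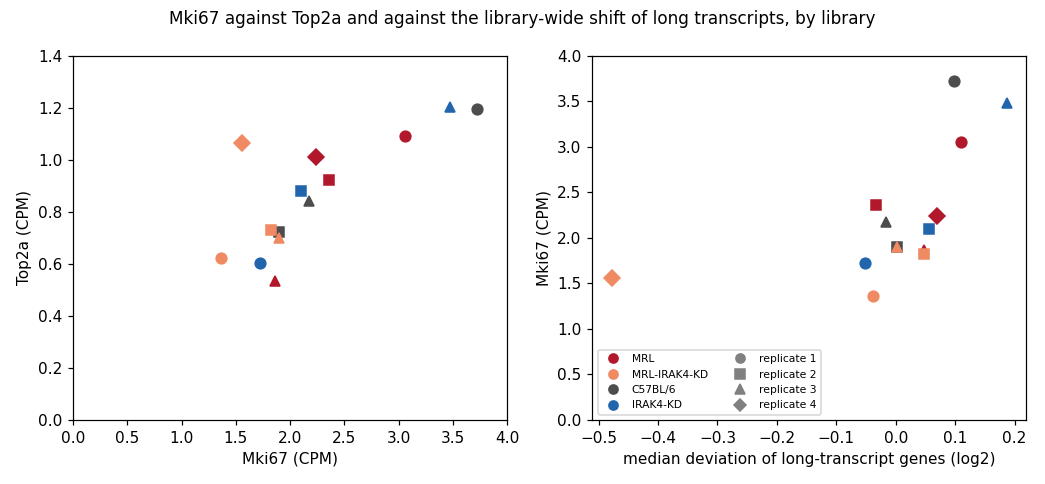
Left, Mki67 against Top2a, both in CPM, and right, the median log2 deviation of genes with at least 10 kb of exon against Mki67, 1 point per library, with colour for the group and shape for the replicate. Mki67 and Top2a have r = 0.74 over 14 libraries and 0.90 without MRL-IRAK4-KD replicate 4 (orange diamond), which lies at -0.48 on the right.

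The neighbouring steps of the lineage were described from lists of genes, in which 0 genes passed the adjusted threshold in any comparison by edgeR. The counts at unadjusted p below are to be read against the shares over all genes, which were 5.14% higher and 6.23% lower for MRL against MRL-IRAK4-KD, and 1.66% higher and 2.13% lower for IRAK4-KD against C57BL/6. Without the 2 doubted libraries, hereafter in 12 libraries, these shares were 5.12%, 3.61%, 2.61% and 3.06%. Of 13 stem cell genes, 1 was higher and 0 lower at unadjusted p between MRL and MRL-IRAK4-KD. It was Notch1, the receptor that keeps stem cells quiescent, at 29.9 ± 3.30 CPM in MRL against 24.2 ± 3.05 CPM in MRL-IRAK4-KD (SD, n = 4 each; log2 difference 0.31 ± 0.11, edgeR adjusted p = 0.434), a difference of 0.22 in 12 libraries, where Notch1 and Nes passed. Between IRAK4-KD and C57BL/6, 3 of the 13 were lower and 0 higher, and Hes5, a Notch target of stem cells, had the lowest p, with a log2 difference of -1.01 ± 0.24 (edgeR adjusted p = 0.327). In 12 libraries 4 of the 13 were lower, and Hes5 was at -0.97. The interaction reached unadjusted p below 0.05 for 2 of the 13, and for 3 in 12 libraries, beside 4.17% and 4.24% of all genes.

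Of 18 other neuroblast and immature neuron genes, 0 were higher and 4 lower in MRL than in MRL-IRAK4-KD at unadjusted p, with a median log2 difference of -0.06. In 12 libraries 2 were lower, Cd24a and Stmn2, with a median of -0.13. Cd24a, a surface protein of neuroblasts, was at 8.56 ± 1.52 against 11.2 ± 1.39 CPM (SD, n = 4 each; log2 difference -0.38 ± 0.16, edgeR adjusted p = 0.437), and the difference was -0.41 in 12 libraries. Stmn2, a tubulin-binding protein of growing axons, was at 245 ± 14.4 against 284 ± 23.1 CPM (-0.22 ± 0.09, edgeR adjusted p = 0.437), and the difference was -0.16 in 12 libraries. Stmn1, a microtubule destabiliser of precursors, was at 320.3 ± 76.2 against 292 ± 80.2 CPM, with overlapping spreads, and differed by 0.33 ± 0.19 in 12 libraries (edgeR adjusted p = 0.650). Between IRAK4-KD and C57BL/6, 0 of the 18 passed in either direction with all or with 12 libraries.

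Of 20 G2/M phase genes other than Mki67 and Top2a, 0 were higher and 1 lower in MRL than in MRL-IRAK4-KD at unadjusted p, with a median log2 difference of 0.07. In 12 libraries 2 were higher and 1 lower. The 1 was Cenpe, a kinetochore motor, at 1.97 ± 0.275 against 2.52 ± 0.308 CPM (SD, n = 4 each; log2 difference -0.36 ± 0.15, edgeR adjusted p = 0.439), the direction opposite to that of Mki67, and its difference was -0.33 in 12 libraries. The sum of the 20 genes was 23.1 to 30.6 CPM in MRL, 24.5 to 27.7 in MRL-IRAK4-KD, 25.4 to 27.6 in C57BL/6 and 27.9 to 29.5 in IRAK4-KD. Of 15 S phase genes, 1 was higher and 3 lower in MRL at unadjusted p, against 0 and 1 (Mcm6) in 12 libraries. Mcm6, a subunit of the replicative helicase, was at 12.9 ± 2.82 against 15.9 ± 0.686 CPM (log2 difference -0.31 ± 0.13, edgeR adjusted p = 0.439, and -0.30 in 12 libraries), and Pcna, the sliding clamp, at 31.8 ± 2.90 against 30.0 ± 4.46 CPM (0.08 ± 0.11, edgeR adjusted p = 0.789), where the sign turned to -0.020 in 12 libraries.

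Of 10 granule neuron genes, 0 were higher and 2 lower in MRL than in MRL-IRAK4-KD at unadjusted p, and 1 lower, Tdo2, in 12 libraries. The lowest p was that of Tdo2, a tryptophan dioxygenase of mature granule cells, at 5.50 ± 1.82 against 8.35 ± 1.67 CPM (SD, n = 4 each; log2 difference -0.60 ± 0.23, edgeR adjusted p = 0.437, and -0.53 in 12 libraries). Of 16 niche signals, 2 were higher in MRL, Reln, the secreted protein that positions new granule cells, at 64.4 ± 13.4 against 46.8 ± 10.6 CPM (0.46 ± 0.19, edgeR adjusted p = 0.437), and Cxcl12, a chemokine that retains precursors in their niche, at 49.7 ± 6.30 against 39.8 ± 4.10 CPM (0.32 ± 0.11, edgeR adjusted p = 0.436). In 12 libraries these differences were 0.36 and 0.27, and 1 niche signal was higher, Cxcl12, and 2 lower.

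Lists of other cells that could share these transcripts were read in the same way. Of 8 genes of the subventricular zone and olfactory interneuron lineage, whose neuroblasts also make Dcx, Sox11 and Igfbpl1, 0 passed at unadjusted p between MRL and MRL-IRAK4-KD, and their sum was 42.2 to 59.5 CPM in the MRL libraries and 46.1 to 52.4 CPM in those of MRL-IRAK4-KD, with 1 lower in MRL in 12 libraries. Cycling oligodendrocyte precursors also make Mki67 and Top2a. Of their 8 markers 1 was higher and 1 lower in MRL at unadjusted p, and their sum was 149 to 164 CPM in MRL against 94.0 to 148 CPM in MRL-IRAK4-KD, where the lowest value was that of replicate 4. In 12 libraries 1 was higher and 0 lower. Microglia, which can also divide, had 8 markers summing to 317 to 399.9 CPM in the MRL libraries and to 298 to 429 CPM in those of MRL-IRAK4-KD, with 1 higher in MRL at unadjusted p and 6 of 8 in 12 libraries. Of 5 blood genes 3 were higher in MRL at unadjusted p, and 5 of 5 in 12 libraries, with sums of 83.9 to 369 CPM in the MRL libraries and 52.9 to 193 CPM in those of MRL-IRAK4-KD. Lymphocyte markers summed to at most 7.38 CPM in any library. In every list 0 genes passed the adjusted threshold in 12 libraries in this contrast. The part of these cells in the values of the 9 genes was not tested.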

How the data were processed

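RNA was measured in 14 hippocampal libraries. The labels name poly(A) RNA and a KAPA HyperPrep mRNA kit, whereas the study's methods name a SMART-seq kit with NexteraXT. Per the labels the authors used HISAT2 2.1.0, SAMtools 1.9 and StringTie 2.1.0 on mm10, with R 4.0.5 and DESeq2 1.30.1. The deposited gene and transcript counts are whole numbers derived by the authors from StringTie coverage, at 1.40 to 2.08 counts per read, so they are not independent reads and precision comes from the spread between libraries. Whether the counting used strand is not given in the sources used here. The authors also deposited library concentrations by qPCR in nM. Features that are not Ensembl genes took 0.0254% to 0.188% of counts and were left out.

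All 14 libraries entered one edgeR 4.0.16 model of the 4 groups (R 4.3.3, TMM, genes with at least 10 counts, robust quasi-likelihood test, Benjamini-Hochberg over all genes). Exact permutation tests were 2-sided. Correlations used log2(CPM + 0.1) with 100000 permutations, 2-sided, and Benjamini-Hochberg over 36 pairs or 54 relations (9 genes by 6 library measures). DESeq2 1.42.0, limma 3.58.1 (voom), other scalings and filters, halved counts, transcript sums, the replicate block and leaving out libraries were alternatives. The edgeR step was checked on simulated data. The study's legends for hippocampal RNA give 1 mouse per plotted value, so p-values measure the spread between animals. The 9 genes and the lists were chosen with earlier results of these data known. From each list the text names genes among the 2 of highest mean CPM and the 1 of lowest p, and for Dcx, Mki67 and Calb2 the 5 genes of highest r. Gene spans are those of GENCODE M21. Python 3.11.15 and matplotlib 3.10.9 drew the figures.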

Additional observations from a re-analysis of the deposited data

Results flagged for a closer look

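One value stood apart from its group by Dixon's 95% critical value. Sox11 in MRL-IRAK4-KD replicate 4 was at 91.8 CPM, against 23.0 to 25.7 CPM in the other 3 libraries of the group, a gap of 0.961 of the group's range where 0.829 is the limit for 4 samples. It was the 1 value flagged among 18 groups of 4 checked, and chance flags about 1 in 20 groups. The same library had the highest Igfbpl1 and Calb2, the lowest Dcx, the highest sum of choroid plexus genes (7917 CPM) and the lowest long-transcript deviation (-0.48 on the log2 scale). The part of these in its Sox11 value was not tested.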

How the results depend on the processing

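The number of the 9 genes called stayed at 0 in all 6 contrasts under every alternative but DESeq2, which called 1, Igfbpl1, between MRL and MRL-IRAK4-KD and between MRL-IRAK4-KD and C57BL/6. The share of all genes that DESeq2 called there is not given. Single log2 differences kept their direction and their side of the threshold in 1266 of 1341 recomputations. These include the transcript sums, which equalled the gene counts for all 55536 genes compared, so agreement there was fixed in advance. The main fit called 0 of the 9 genes, so the tally is not a measure of robustness. The number of pairs of the 9 genes past the adjusted threshold was 1 in place of 0 without MRL-IRAK4-KD replicate 4, with a pseudocount of 1, and, chosen after seeing the data, with group means subtracted and without MRL-IRAK4-KD replicate 4. In each case it was Mki67 and Top2a.

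Differences that changed sign were all below the threshold, and the cause was not tested. With limma-voom and quality weights they were Sox11 0.21 for MRL minus MRL-IRAK4-KD, Top2a 0.022 for IRAK4-KD minus C57BL/6, Sox11 -0.39, Calb2 -0.33 and Draxin -0.019 for MRL-IRAK4-KD minus C57BL/6, Sox11 -0.51 and Calb2 -0.24 for MRL-IRAK4-KD minus IRAK4-KD, Sox11 0.33, Eomes -0.51 and Igfbpl1 0.27 for the interaction. Scaling by library size alone gave Neurod1 -0.00074 and Draxin -0.020 for MRL-IRAK4-KD minus C57BL/6. With only the 2 groups in the fit it was Neurod1 0.0017 for MRL-IRAK4-KD minus IRAK4-KD, and with halved counts Neurod1 0.0053 for MRL-IRAK4-KD minus IRAK4-KD.

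With 1 library left out, or both MRL-IRAK4-KD replicate 4 and IRAK4-KD replicate 3 (chosen after seeing the data), the ranges that crossed 0 were Sox11 -0.73 to 0.21 for MRL minus MRL-IRAK4-KD, Dcx -0.40 to 0.12, Top2a -0.18 to 0.19, Mki67 -0.29 to 0.23 and Neurod1 -0.11 to 0.00068 for MRL minus C57BL/6. They were Mki67 -0.44 to 0.26, Top2a -0.31 to 0.19, Draxin -0.21 to 0.043 and Calb2 -0.17 to 0.28 for IRAK4-KD minus C57BL/6, Draxin -0.18 to 0.18, Sox11 -0.40 to 0.54 and Calb2 -0.34 to 0.44 for MRL-IRAK4-KD minus C57BL/6. They were Neurod1 -0.063 to 0.034, Draxin -0.11 to 0.29, Sox11 -0.63 to 0.44, Calb2 -0.40 to 0.39, Top2a -0.42 to 0.070 and Dcx -0.51 to 0.11 for MRL-IRAK4-KD minus IRAK4-KD, Eomes -0.36 to 0.74, Dcx -0.24 to 0.39, Sox11 -0.64 to 0.43, Igfbpl1 -0.74 to 0.58, Neurod1 -0.12 to 0.013 and Top2a -0.12 to 0.40 for the interaction.

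Replicate numbers did not pair the libraries: deviations of same-numbered libraries from their group means had correlations of -0.25 to 0.37. With the replicate block 0 of the 9 genes were called in each contrast, as without it. Under that block the values were Sox11 -0.20 and Calb2 -0.10 for MRL-IRAK4-KD minus C57BL/6, Sox11 -0.30 and Calb2 -0.089 for MRL-IRAK4-KD minus IRAK4-KD, Igfbpl1 0.076 for the interaction. Groups of 3 and 4 limit every comparison, and no exact permutation test of 3 against 4 libraries can pass 0.05. Eomes, Igfbpl1, Draxin and Top2a had the lowest counts, as few as 25 to 207 in a library. For MRL minus MRL-IRAK4-KD, Eomes and Igfbpl1 had the largest SE of the 9 genes, 0.57 and 0.49. Those of Draxin (0.24) and Top2a (0.29) were below that of Sox11 (0.38).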
